A study of Rattus norvegicus with 4 samples.

Results

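B cells with Cd24 RNA detected and no Fcer2 RNA detected are described here in rat blood, from single-cell RNA-seq of cells captured in droplets. They were chosen barcode by barcode. A barcode was kept if it had 500 or more UMIs (unique molecular identifiers, the tags that count RNA molecules) and 200 or more detected genes, and if no more than 20% of its UMIs were mitochondrial. A kept barcode was a gated B cell when Cd79b and Ms4a1 together gave at least 2 UMIs, when Igll1, Rag1, Dntt and Csf1r gave none, when Cd3e, Cd3d and Cd3g together gave at most 1, and when hemoglobin genes gave under 40% of its UMIs. Gated B cells with at least 1 Cd24 UMI and 0 Fcer2 UMIs are called Cd24+ Fcer2- B cells here. There were 674 of them among 6972 gated B cells and 45986 kept barcodes: 221 in the MSC-i.v library, 132 in MSC-i.t, 87 in SCI and 234 in Sham.

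The study compared routes of giving umbilical cord mesenchymal stromal cells (UC-MSCs) to rats with a traumatic spinal cord injury (SCI) made by Allen's method. The MSC-i.v group had the injury and 30000000 cells per kg into a vein, the MSC-i.t group had the injury and 10000000 cells per kg intrathecally, the cells being given at 72 h and again on day 7 in both groups, the SCI group had the injury without cells, and the Sham group is labelled as sham. The 40 rats were split into groups of 10, and 1 blood library was analysed for each group. Strain, sex, the number of rats pooled in a library and the time of the blood draw are not given in the labels. The deposited names carry the tag 24h for MSC-i.v, MSC-i.t and Sham and the tag Pre for SCI. What these tags are counted from is not stated, so whether the SCI blood was drawn after the injury, and the blood of the treated groups after the cells were given, is not known here. Library, tag and group cannot be told apart in any ratio with SCI, nor library and group in the others, and every interval given for a library or a ratio of 2 libraries covers counting error only.

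Cd24 encodes a small glycosylated surface protein anchored by a lipid tail. In mouse, it is abundant on immature and transitional B cells, which have just left the bone marrow, and lower on resting follicular B cells. Fcer2 encodes CD23, the low-affinity IgE receptor, which mouse B cells gain as they become follicular cells, whereas marginal zone B cells, B1 cells and the earliest transitional cells have little of it. In rat, newly formed B cells that leave the marrow keep Thy1 (CD90) on their surface for a time and then lose it. Naive follicular B cells show much MHC class II, the molecules that present peptides to helper T cells. Transcription of MHC class II genes needs the coactivator Ciita, acting through a conserved set of promoter elements of which one is the Y box, a CCAAT element read here on its opposite strand.

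The MHC class II promoters are shown because the genes behind them were lower in the Cd24+ Fcer2- B cells, as described further on. The sequences are RefSeq's for the rat assembly GRCr8 and run from 5′ to 3′ on the strand of the gene. Capitals mark the letters CTGATTGG, the core of the Y box, in stretches of 100 bases that end shortly before each gene's start as the promoter table gives it.
RT1-Da (chr20:4515295-4515394, plus strand): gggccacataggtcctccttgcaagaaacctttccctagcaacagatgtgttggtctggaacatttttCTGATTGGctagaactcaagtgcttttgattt
RT1-Db1 (chr20:4560183-4560282, minus strand): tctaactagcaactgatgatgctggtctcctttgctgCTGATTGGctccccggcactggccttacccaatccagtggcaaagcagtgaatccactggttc
RT1-Ba (chr20:4576937-4577036, plus strand): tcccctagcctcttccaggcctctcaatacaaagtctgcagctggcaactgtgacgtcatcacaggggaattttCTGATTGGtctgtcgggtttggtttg
RT1-Bb (chr20:4604139-4604238, minus strand): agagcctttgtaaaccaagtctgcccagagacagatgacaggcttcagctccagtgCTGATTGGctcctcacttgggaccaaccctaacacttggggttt
The 8 letters began 52 bases before that start in RT1-Da, 83 before it in RT1-Db1, 46 in RT1-Ba and 64 in RT1-Bb. These genes encode the alpha and beta chains of the rat class II molecules RT1-D and RT1-B. Searched on both strands of windows from 250 bases before to 50 bases after the start, the letters were found in 1172 of 33469 rat promoters (3.50%). A match is a description of the letters, not of binding.

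The libraries held between 63133881 (SCI) and 91124523 (MSC-i.v) UMIs in all. Kept barcodes numbered 16691 in MSC-i.v, 10958 in MSC-i.t, 8105 in SCI and 10232 in Sham, and their median depth was 3808 UMIs in MSC-i.v, 5523.5 in MSC-i.t, 5886 in SCI and 5031.5 in Sham. MSC-i.v was thus the shallowest library per cell. Cd24+ Fcer2- B cells had a median of 2167 UMIs in MSC-i.v, 3112.5 in MSC-i.t, 3521 in SCI and 2501.5 in Sham, close to the 2108.5 to 3399 UMIs of Fcer2-positive B cells. Pairs of libraries shared at most 0.580% of the smaller library's kept barcodes, and no barcode of a Cd24+ Fcer2- B cell was shared. Doublets were scored and not removed. Only 8 of the 674 cells lay above the 95th percentile of UMIs of their own library.

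The rule fixed the level of Cd24, Fcer2, Cd79b and Ms4a1, so their values only describe the cells. Levels are given as CPM, meaning the summed UMIs of a gene in a class and library as counts per 1000000 UMIs of that sum. Cd24 stood at 595 CPM in MSC-i.v, 470 in MSC-i.t, 511 in SCI and 650 in Sham, against 32.0 to 81.0 CPM in Fcer2-positive B cells. Most of the cells rested on little Cd24 RNA: 142 in MSC-i.v, 77 in MSC-i.t, 43 in SCI and 137 in Sham had exactly 1 Cd24 UMI. Just outside the rule lay 42 cells in MSC-i.v, 30 in MSC-i.t, 25 in SCI and 45 in Sham with Cd24 and exactly 1 Fcer2 UMI. Cells with exactly 2 UMIs of Cd79b and Ms4a1, the least the rule allows, numbered 8 in MSC-i.v, 1 in MSC-i.t, 1 in SCI and 4 in Sham. T-gated cells (at least 2 Cd3 UMIs and none of Cd79a, Cd79b or Ms4a1) had a Cd24 UMI in 0.145% of cells in MSC-i.v, 0.340% in MSC-i.t, 0.276% in SCI and 0.561% in Sham, although their median depth of 3810.5 to 6031 UMIs was higher. At 6.70% to 13.2%, the share of Fcer2-positive B cells with a Cd24 UMI was above that level in every library. Which of these UMIs came from free RNA or doublets was not tested.

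The markers given for these cells were Cd24, Ms4a1, Spib and Cd72, and each was well detected. Ms4a1, which encodes the surface protein CD20, was at 428 CPM in MSC-i.v, 472 in MSC-i.t, 508 in SCI and 525 in Sham. Spib encodes an ETS-family transcription factor of B cells, and Cd72 a receptor that damps B cell receptor signals. Spib was at 326 CPM in MSC-i.v, 439 in MSC-i.t, 435 in SCI and 474 in Sham, against 173 in MSC-i.v, 185 in MSC-i.t, 204 in SCI and 225 in Sham in Fcer2-positive B cells. Cd72 was at 212 CPM in MSC-i.v, 332 in MSC-i.t, 246 in SCI and 353 in Sham, against 110 to 154 CPM in Fcer2-positive B cells. In T-gated cells Spib was at most at 2.3 CPM and Cd72 at 0.66 CPM. Because both markers were named with results of these data known, their tests (log2 fold change 1.03 for Spib and 1.11 for Cd72 over Fcer2-positive B cells) give no independent support. Fcmr, the Fc receptor for IgM, is on the list of mature follicular genes used further on. It was at 1139 to 1208 CPM, against 1155 to 1245 CPM in Fcer2-positive B cells. In precursor-gated B cells (at least 1 UMI of Igll1, Rag1 or Dntt) it was at 130 to 266 CPM.

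**Figure D1:**
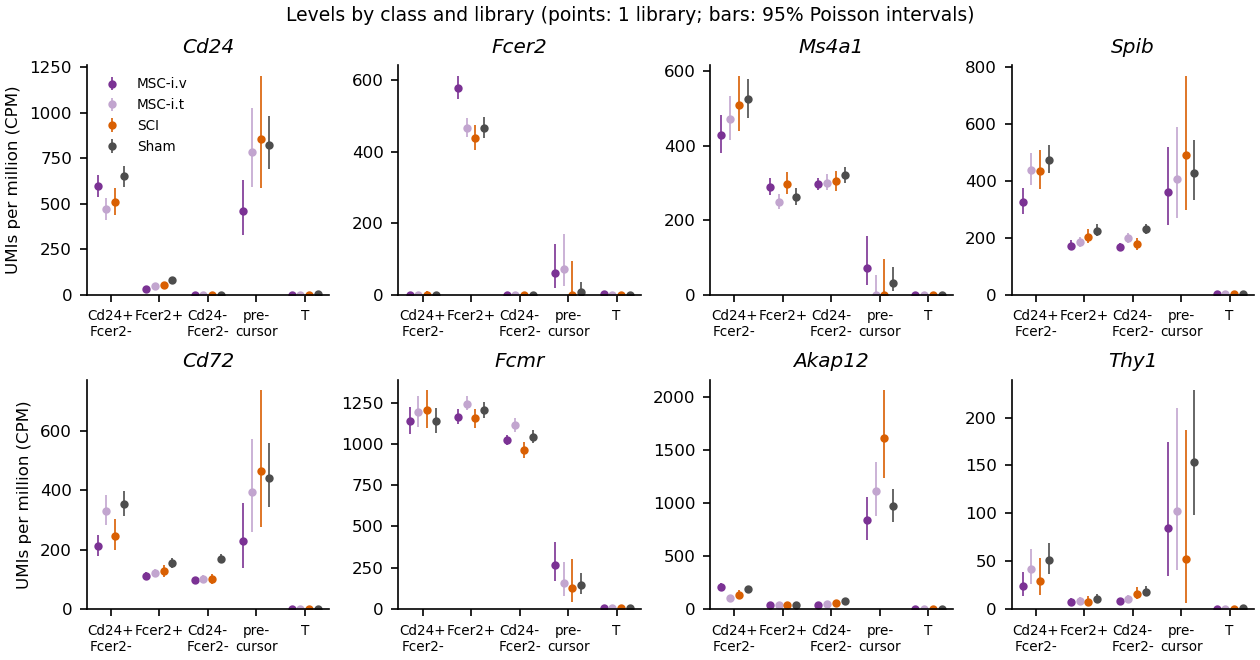
Level (CPM, linear axes) of 8 genes in 5 classes of cells, with 1 point per library and bars for 95% Poisson intervals. Cd24+ Fcer2- B cells sit above Fcer2-positive B cells for Spib, Cd72, Akap12 and Thy1 in all 4 libraries and beside them for Fcmr; precursor-gated B cells are highest for Akap12.

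Shares of Cd24+ Fcer2- cells among gated B cells were highest in Sham. They were 7.70% in MSC-i.v (221 of 2871 cells, exact Clopper-Pearson 95% interval 6.75 to 8.73), 8.20% in MSC-i.t (132 of 1610, 6.90 to 9.65), 10.3% in SCI (87 of 846, 8.32 to 12.5) and 14.2% in Sham (234 of 1645, 12.6 to 16.0). On the log2 scale the SCI over Sham ratio was -0.47 (95% interval -0.84 to -0.11), that of MSC-i.v over Sham was -0.89 (-1.16 to -0.61) and that of MSC-i.t over Sham was -0.79 (-1.11 to -0.48). The log2 ratio was -0.42 (-0.78 to -0.04) for MSC-i.v over SCI and -0.33 (-0.73 to 0.08) for MSC-i.t over SCI. The first interval leaves out 0 and the second holds it. With every cell thinned to 2000 UMIs, MSC-i.v over SCI was -0.31 (-0.75 to 0.14). With at least 2 Cd24 UMIs, MSC-i.t over SCI was -0.61 (-1.20 to -0.00051) and SCI over Sham was -0.18 (-0.73 to 0.35). Whether these intervals leave out 0 thus depended on the depth and on the Cd24 threshold.

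The order below Sham depended on what the cells were counted against. Gated B cells made up 20.4% of kept barcodes under 40% hemoglobin in MSC-i.v, 16.1% in MSC-i.t, 11.6% in SCI and 18.1% in Sham. Per 1000 T-gated cells there were 26.6 Cd24+ Fcer2- B cells in MSC-i.v (23.2 to 30.4), 19.5 in MSC-i.t (16.3 to 23.1), 16.0 in SCI (12.8 to 19.8) and 43.7 in Sham (38.3 to 49.7). Counted this way the MSC-i.v over SCI log2 ratio was 0.73, the opposite direction to that among gated B cells, and SCI over Sham was -1.45. Sham was highest by each of these counts. With every cell thinned to 2000 UMIs the share of gated B cells was 7.17% in MSC-i.v, 6.83% in MSC-i.t, 8.88% in SCI and 11.8% in Sham, and 52.6% of gated B cells in MSC-i.v, 94.7% in MSC-i.t, 95.2% in SCI and 88.1% in Sham were deep enough to be thinned.

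**Figure D2:**
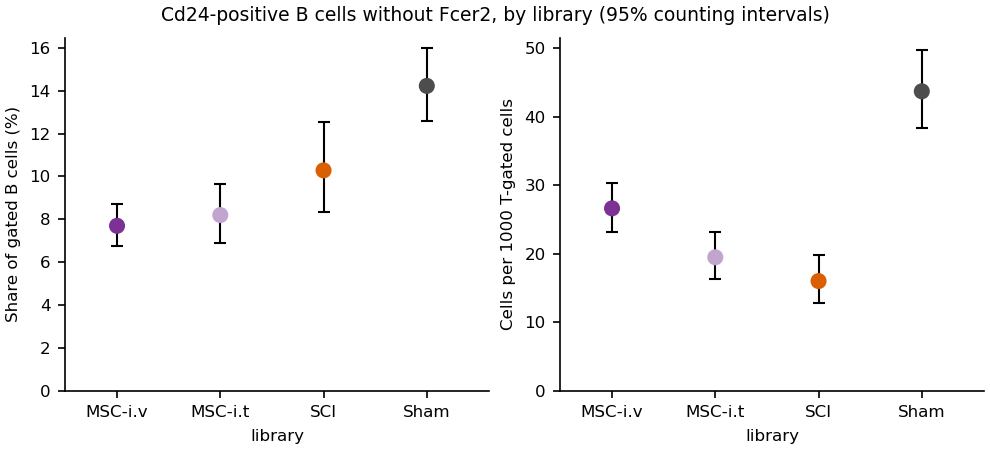
Left, Cd24+ Fcer2- cells as a percent of gated B cells, and right, their number per 1000 T-gated cells, for the 4 libraries with 95% counting intervals. Sham is highest in both panels (14.2% and 43.7), whereas MSC-i.v lies below SCI on the left (7.70% against 10.3%) and above it on the right (26.6 against 16.0).

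Set against Fcer2-positive B cells of the same libraries, the Cd24+ Fcer2- cells had more RNA of Thy1, Tifa, Akap12 and Stambpl1, and less RNA of the homing receptors Ccr6 and Gpr183 and of most follicular and MHC class II genes measured. UMIs were summed per class and library and compared with edgeR's quasi-likelihood test with the library as a block, adjusted by Benjamini-Hochberg over 6355 genes. At an adjusted p under 0.05, 362 genes were higher (5.7% of those tested) and 321 lower (5.05%). The p-values measure only how alike the class difference was in these 4 libraries.

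Of the 3 precursor B cell genes of the list that were measured, Akap12 was higher and Lef1 lower. Levels in precursor-gated cells are given beside other genes as a description, chosen after their values were seen. That class was small, with 29 cells in MSC-i.v, 19 in MSC-i.t, 12 in SCI and 47 in Sham. Its summed UMIs ranged from 38591 in SCI to 156353 in Sham, so its low values and zeros rest on few UMIs. Tifa, an adaptor of TRAF6 signalling, was at 293 CPM in MSC-i.v, 224 in MSC-i.t, 284 in SCI and 361 in Sham, against 40.6 in MSC-i.v, 46.4 in MSC-i.t, 51.7 in SCI and 75.5 in Sham in Fcer2-positive cells. The groups did not overlap, and the log2 fold change was 2.39 (SE 0.10, edgeR, adjusted p = 3.8e-15), higher in 4 of 4 libraries. Precursor-gated cells had 1331 to 1996 CPM of Tifa. Akap12, a scaffold for protein kinase A, was at 210 CPM in MSC-i.v, 104 in MSC-i.t, 135 in SCI and 186 in Sham, against 35.6 to 41.1 CPM in Fcer2-positive cells, a log2 fold change of 2.01 (SE 0.15, edgeR, adjusted p = 8.5e-11), higher in 4 of 4 libraries. Stambpl1, a deubiquitinase, was at 51.3 (SCI) to 76.9 CPM (MSC-i.v), against 8.2 to 15.2 CPM, a log2 fold change of 2.65 (SE 0.20, edgeR, adjusted p = 1.7e-10). Precursor-gated cells held 835 to 1607 CPM of Akap12 and 436 to 947 CPM of Stambpl1, so that for these genes the Cd24+ Fcer2- cells lay between the other two classes in every library. RT1-Da was at 4118 to 4540 CPM, against 0 to 1331 CPM in precursor-gated cells.

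Myb, the transcription factor of dividing blood progenitors, was at 15.7 CPM in MSC-i.v, 17.0 in MSC-i.t, 13.5 in SCI and 14.3 in Sham, against 0.91 to 3.0 CPM in Fcer2-positive cells (log2 fold change 3.12, SE 0.47, edgeR, adjusted p = 2.6e-05). Pcp4l1, a relative of the calmodulin-binding protein Pcp4, had 32 UMIs in Cd24+ Fcer2- cells over the 4 libraries and 0 in Fcer2-positive cells. Precursor-gated cells had 43.7 to 84.7 CPM of Pcp4l1 and 179 to 233 CPM of Myb. The other genes with the largest called rises were Krt7 (a keratin), Slamf9 (a SLAM-family receptor), Anxa1 (annexin A1), Gstm7 (a glutathione transferase), Csgalnact1 (an enzyme of chondroitin sulfate synthesis), Tubb2b (a beta tubulin) and Pld4 (a lysosomal nuclease), with log2 fold changes of 2.44 to 3.96, each higher in 4 of 4 libraries.

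Thy1, named here after its values were seen, was at 23.5 CPM in MSC-i.v, 41.5 in MSC-i.t, 29.7 in SCI and 50.8 in Sham. Fcer2-positive cells had 7.3 CPM in MSC-i.v, 8.2 in MSC-i.t, 7.3 in SCI and 10.1 in Sham, and precursor-gated cells had 51.8 to 153 CPM. The lowest library of the Cd24+ Fcer2- cells was thus above the highest of the Fcer2-positive cells (log2 fold change 2.08, SE 0.24, edgeR, adjusted p = 4.3e-07, 4 of 4 libraries). Thinned to 2000 UMIs per cell, 4.55% of Cd24+ Fcer2- cells in MSC-i.v, 10.7% in MSC-i.t, 7.06% in SCI and 10.9% in Sham had a Thy1 UMI, against 1.15% to 1.48% of Fcer2-positive cells. T-gated cells had at most 0.49 CPM of Thy1.

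**Figure D3:**
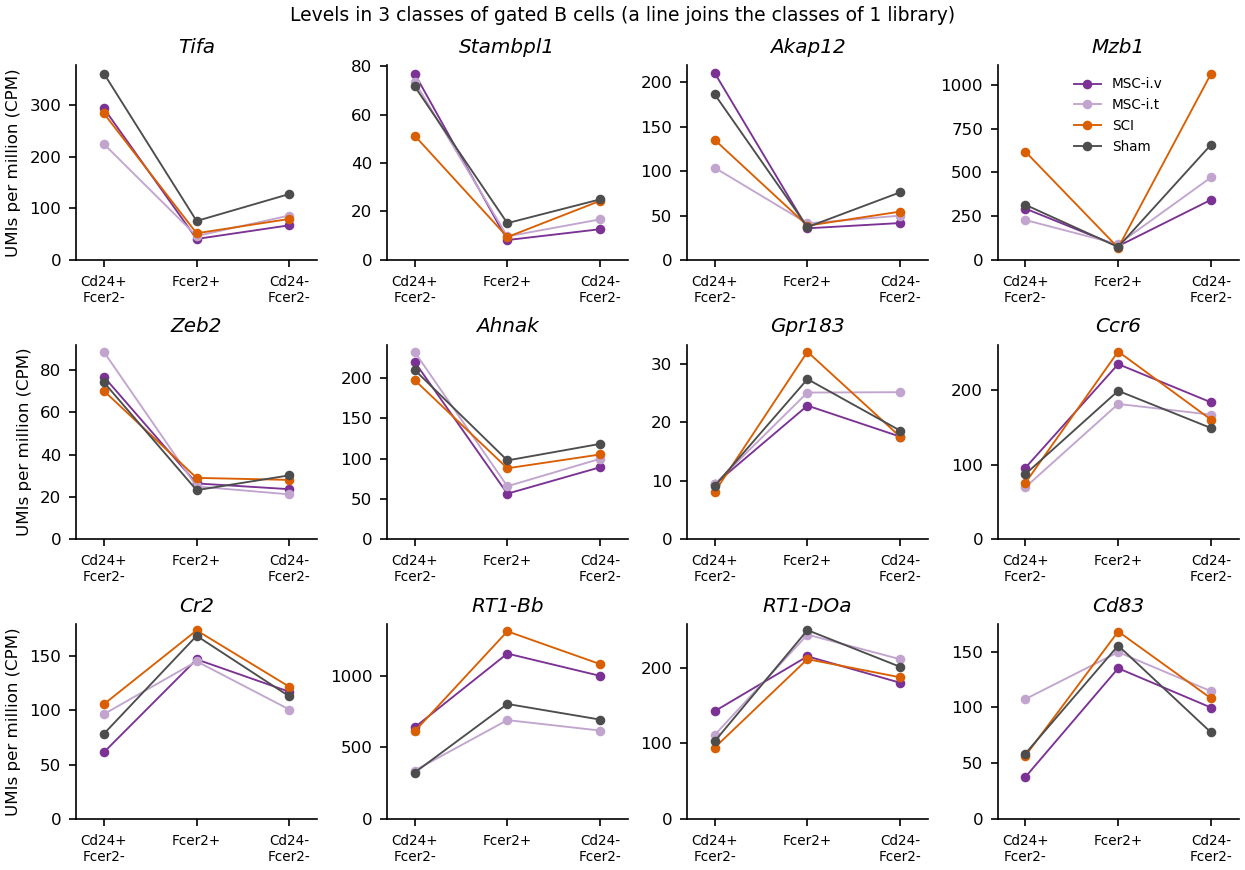
Level (CPM, linear axes from 0) of 12 genes in Cd24+ Fcer2- B cells, Fcer2-positive B cells and B cells without either RNA, with a line joining the classes of each library. Tifa, Stambpl1, Akap12, Zeb2 and Ahnak are highest in the Cd24+ Fcer2- cells, Gpr183, Ccr6, RT1-Bb and RT1-DOa are lowest there, and Mzb1 is high in both classes without Fcer2.

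Homing receptors were lower or not called. Of 13 genes of the homing and adhesion list 0 were higher and 5 lower, with a median log2 fold change of -0.19 beside -0.00 over all genes. With DESeq2 in place of edgeR 3 of the 13 were lower, and with cells thinned 1 of the 11 that could be tested. Ccr6, the receptor for the chemokine CCL20, was at 69.8 (MSC-i.t) to 95.7 CPM (MSC-i.v), against 181 to 251 CPM, and fell by 1.41 on the log2 scale (SE 0.11, edgeR, adjusted p = 1.3e-10). Gpr183, the oxysterol receptor that places B cells at the edge of follicles, fell by 1.57 on the log2 scale (edgeR, adjusted p = 0.00014). Cxcr4 and S1pr1, which hold cells in the marrow and let them leave tissues, had log2 fold changes of 0.02 and -0.02 and were not called.

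Of 9 mature follicular genes, 6 were lower and 0 higher, with a median of -0.69. Among them were Pxk, Satb1 (a chromatin organizer), Stap1, Cd200 (an inhibitory ligand) and Btg1 (an antiproliferative factor), with log2 fold changes of -1.15 to -0.42. Fcmr was at a log2 fold change of -0.08 and Foxp1 at 0.03, and neither was called. The complement receptor Cr2 (CD21), which mature B cells use to take up opsonized antigen, was at 61.2 CPM in MSC-i.v, 96.2 in MSC-i.t, 105 in SCI and 78.2 in Sham, against 145 to 173 CPM in Fcer2-positive cells (log2 fold change -0.98, SE 0.12, edgeR, adjusted p = 6.6e-07). Marginal zone genes were mixed: besides Cr2 falling, Mzb1 and Cd1d1 rose among 6 measured, and Cr1l and Notch2 were not called. Mzb1 is a chaperone of immunoglobulin assembly found in marginal zone, B1 and plasma cells, and Cd1d1 presents lipids to NKT cells.

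MHC class II genes were lower as a group. Of 11 measured, 8 were lower and 0 higher, with a median log2 fold change of -0.68. RT1-Bb was at 639 CPM in MSC-i.v, 338 in MSC-i.t, 611 in SCI and 323 in Sham, against 1154 in MSC-i.v, 690 in MSC-i.t, 1309 in SCI and 802 in Sham in Fcer2-positive cells. The ranges of the classes did not overlap, and MSC-i.t and Sham were lower than MSC-i.v and SCI in both classes. Within each library the Cd24+ Fcer2- cells were lower, by 1.11 on the log2 scale over the 4 libraries (log2 fold change -1.11, SE 0.07, edgeR, adjusted p = 1.7e-12). RT1-Da was at 4427 CPM in MSC-i.v, 4540 in MSC-i.t, 4242 in SCI and 4118 in Sham, against 6622 to 6751 CPM, with a log2 fold change of -0.68. RT1-Db1 and RT1-Ba had log2 fold changes of -0.68 and -0.76, and RT1-DOa and RT1-DOb, the chains that regulate peptide loading in B cells, -1.07 and -0.88. Cd74, the invariant chain that guides class II molecules through the cell, moved least, at 8489 to 9710 CPM against 10541 to 11134 CPM (log2 fold change -0.34, SE 0.04, edgeR, adjusted p = 1.1e-06). Ciita was at 29.8 CPM in MSC-i.v, 26.4 in MSC-i.t, 27.0 in SCI and 29.96 in Sham, against 50.1 to 64.0 CPM (edgeR, adjusted p = 0.00013, lower in 4 of 4 libraries), and Rfx5, Rfxank and Ctss were not called.

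The Y-box letters stood in 5 of the 7 class II genes called lower that have a promoter entry (71.4%), 4 of which are printed above, the other being RT1-DOa, where they began 110 bases before the start. Over all class II genes measured, called or not, the letters were in 7 of 11 promoter entries (63.6%). These include entries of Rfx5, which was not called. Over all called genes the letters were in 18 of 286 promoters of genes that were higher (6.29%) and 13 of 255 of genes that were lower (5.10%). These counts describe the promoters, not the cells.

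**Figure D4:**
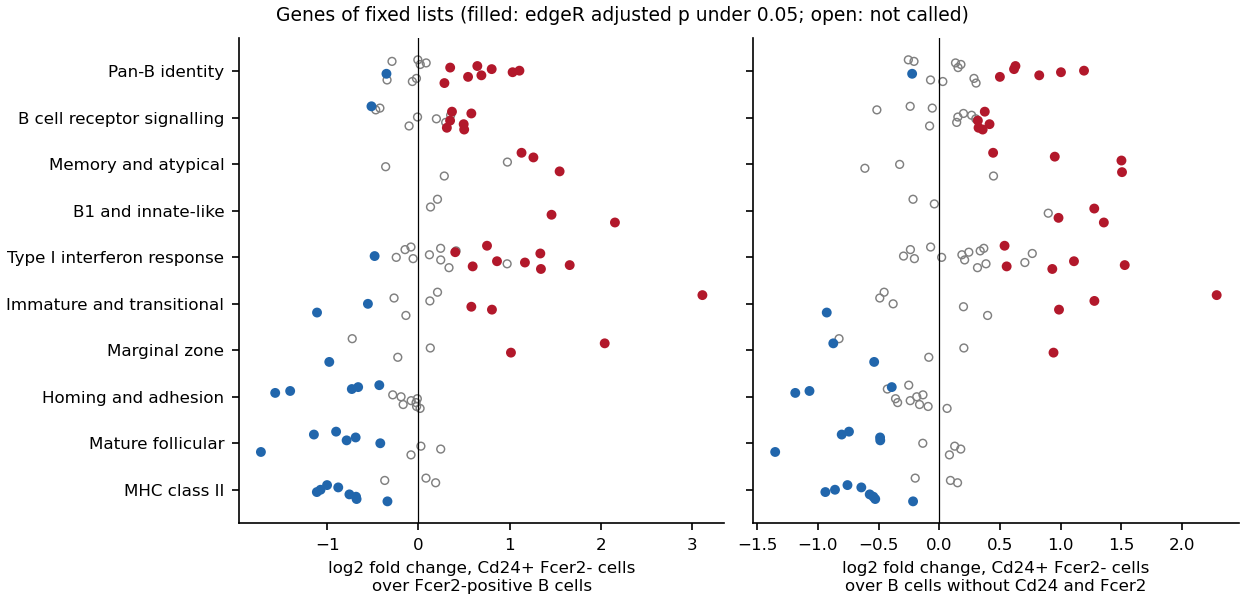
Log2 fold change of the genes of 10 lists in Cd24+ Fcer2- B cells over Fcer2-positive B cells (left) and over B cells without either RNA (right), 1 point per gene. Filled red points were called higher, filled blue points lower and open points were not called at an adjusted p under 0.05; on the left 8 of 11 MHC class II genes and 6 of 9 mature follicular genes were called lower.

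Most calls among B cell identity and signalling genes were of higher levels. Of 16 pan-B genes, 8 were higher and 1, Bank1, was lower, with a median of 0.19. The 8 include the markers Spib and Cd72, which, as said above, give no independent support. Besides Spib and Cd72, Cd37 (a tetraspanin) had a log2 fold change of 0.80, Blk (a kinase of the B cell receptor) of 0.69, Fcrla of 0.65 and Ebf1 (a factor that sets B cell fate) of 0.54. Of 14 genes of B cell receptor signalling, 6 were higher and 1, the kinase Fyn, was lower. The kinases Syk and Lyn, the adaptor Blnk and the phosphatase Ptpn6 were among those higher, with log2 fold changes of 0.31 to 0.50. Cd79a was called at a log2 fold change of 0.29, and Pax5 and Btk were not called, at log2 fold changes of -0.02 and -0.10.

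Genes of the memory and innate-like B cell lists also rose. Of 6 memory and atypical genes, Zeb2, Vim and Crip1 were higher and none lower. Zeb2, a transcription factor of age-associated B cells in mouse, was at 76.9 CPM in MSC-i.v, 88.6 in MSC-i.t, 70.2 in SCI and 74.3 in Sham, against 23.3 to 29.1 CPM in Fcer2-positive cells. The log2 fold change was 1.55 (SE 0.16, edgeR, adjusted p = 5.1e-08), and precursor-gated cells also had Zeb2, at 51.8 to 205 CPM. Zbtb32, a transcriptional repressor of memory and B1 cells in mouse, was at 36.1 CPM in MSC-i.v, 62.2 in MSC-i.t, 18.9 in SCI and 23.4 in Sham, against 6.4 to 9.5 CPM (log2 fold change 2.16, SE 0.30, edgeR, adjusted p = 5.8e-06), and it gave 0 UMIs in precursor-gated cells. Ahnak, a large scaffold protein, was at 197 (SCI) to 232 CPM (MSC-i.t), against 56.6 to 97.7 CPM, with 0 to 36.3 CPM in precursor-gated cells. Anxa1 was at 81.6 CPM in MSC-i.v, 32.1 in MSC-i.t, 54.0 in SCI and 99.0 in Sham, against 5.5 to 10.1 CPM. Cd44, the hyaluronan receptor, named after its values were seen, had a log2 fold change of 1.52 (SE 0.25, edgeR, adjusted p = 7.3e-05).

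Within the Cd24+ Fcer2- cells, Akap12 was found more often beside Thy1, and Zbtb32 beside Anxa1 and Cd44. These pairs were chosen after their values were seen and are a description of UMIs pooled over 674 cells of 4 libraries. The cells were not brought to equal depth, and the part of depth in shared detection was not tested. Both Akap12 and Thy1 were found in 30 cells, Zbtb32 and Anxa1 in 15 and Zbtb32 and Cd44 in 14. Akap12 was detected in 174 cells and Thy1 in 72, and 17.2% of the cells with Akap12 had Thy1, against 8.4% of those without. Zbtb32 was detected in 39 cells and in 1.72% of those with Akap12, against 7.2% of those without. Anxa1 was detected in 38.5% of cells with Zbtb32, against 3.78% of cells without, and Cd44 in 35.9% against 4.09%. Mzb1 was found in 70.8% of cells with Thy1 and 43.5% of cells without.

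By the number of Cd24 UMIs in a cell, Cd72 was at 273 CPM in MSC-i.v, 702 in MSC-i.t, 443 in SCI and 442 in Sham with 3 or more. With 2 it was at 231 CPM in MSC-i.v, 316 in MSC-i.t, 125 in SCI and 499 in Sham, and with 1 at 183 in MSC-i.v, 207 in MSC-i.t, 194 in SCI and 257 in Sham. Cells with 3 or more were above cells with 1 in each library, but in MSC-i.v the counting intervals overlapped (191 to 378 CPM, against 142 to 232 CPM), and cells with 2 were lowest in SCI and highest in Sham. Cd72 is only 1 of the genes split in this way, and the others did not all follow it. From 1 to 3 or more Cd24 UMIs, Ms4a1 went from 431 to 250 CPM in MSC-i.v and from 534 to 515 in Sham. It went from 397 to 627 CPM in MSC-i.t and from 366 to 856 in SCI. Spib went from 342 to 356 CPM in MSC-i.v, 343 to 599 in MSC-i.t, 304 to 644 in SCI and 456 to 488 in Sham. These bins hold 20 (SCI) to 142 (MSC-i.v) cells.

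Of 19 type I interferon response genes, 8 were higher and 1 was lower, with a median of 0.40. Ifit3, an antiviral protein, and Isg15, a ubiquitin-like modifier, had log2 fold changes of 1.66 and 1.34. With DESeq2 in place of edgeR 2 of the 19 were higher, and with cells thinned 3 of the 12 that could be tested. Of 9 survival genes 3 were higher (Tnfrsf13b and Tnfrsf13c, the receptors TACI and BAFF-R, and Bax) and 3 lower (Bcl2, Cd40 and Nfkb2). Bcl2, which blocks cell death, was at 56.5 CPM in MSC-i.v, 64.1 in MSC-i.t, 83.8 in SCI and 31.3 in Sham, against 88.6 to 105 CPM (log2 fold change -0.80, SE 0.15, edgeR, adjusted p = 0.00043). Of 14 immediate early genes 4 were lower and 0 higher, led by the activation marker Cd83 at a log2 fold change of -1.28. Of 12 cell cycle genes Mki67 and Stmn1 were higher and Mcm3 lower. Mki67, present in dividing cells, was at 33.0 CPM in MSC-i.v, 11.3 in MSC-i.t, 54.0 in SCI and 13.0 in Sham, against 4.6 to 15.3 CPM, and it was detected in 18 of the 674 cells.

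Of 9 immature and transitional genes Myb, Cecr2 and Cd81 (a tetraspanin) were higher and Cd38 and Il4r lower, and Vpreb3 gave 0 UMIs in every class. Of 4 B1 and innate-like genes Zbtb32 and Ahnak were higher. Of 10 Toll-like receptor genes only Irf8 was called, and was lower. Of 8 glucocorticoid-responsive genes 2 were higher and 2 lower, of 5 plasma cell genes Irf4 and Ssr4 were higher and of 5 cytokine and regulatory genes Cd1d1 was higher. With DESeq2 in place of edgeR, calls numbered 4 of 14 in B cell receptor signalling, 3 of 9 among immature and transitional genes, 2 of 9 among survival genes, 2 of 14 among immediate early genes and 1 of 3 among precursor genes, and there were none in the glucocorticoid, plasma cell and cytokine lists. The largest called falls outside these lists were Ccl6 (a chemokine), Trpm6 (a magnesium channel), Fam212a, Slc28a2 (a nucleoside carrier), Icoslg (the ligand of the T cell receptor ICOS), RT1-Ha, Sh3bp2 (an adaptor), Mycl and Rabgef1, at log2 fold changes of -4.55 to -1.56, each lower in 4 of 4 libraries. Ccl6 rested on 2 UMIs, against 183 in Fcer2-positive cells, a ratio of 0.0389 (95% counting interval 0.00468 to 0.143).

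Markers of other cells differed in level between the lists. Summed over the T cell list, Cd24+ Fcer2- B cells held 110 to 155 CPM, against 84.9 to 122 CPM in Fcer2-positive cells and 2120 to 2319 CPM in T-gated cells, and Cd4 gave 0 UMIs in 3 libraries and 1 in MSC-i.v. The NK cell list summed to 383 CPM in MSC-i.v, 468 in MSC-i.t, 181 in SCI and 331 in Sham, against 78.1 in MSC-i.v, 89.8 in MSC-i.t, 346 in SCI and 348 in Sham in Fcer2-positive cells and 406 to 609 CPM in T-gated cells. It was thus higher than in Fcer2-positive cells in MSC-i.v and MSC-i.t and lower in SCI and Sham, and 11 cells held 2 or more UMIs of Nkg7, Gzma, Klrb1a and Prf1. The platelet list summed to 29.7 (SCI) to 546 CPM (Sham), against 102 (SCI) to 496 CPM (Sham) in Fcer2-positive cells and 110 (SCI) to 320 CPM (Sham) in T-gated cells. The erythroid list summed to 105 (SCI) to 503 CPM (Sham), against 154 (SCI) to 509 CPM (MSC-i.v) in Fcer2-positive cells and 171 (SCI) to 605 CPM (MSC-i.v) in T-gated cells. The monocyte list summed to 134 (MSC-i.t) to 337 CPM (Sham), against 173 (MSC-i.t) to 378 CPM (Sham) in Fcer2-positive cells. The dendritic list summed to 54.7 (Sham) to 89.5 CPM (MSC-i.v), against 41.5 to 59.7 CPM, and the neutrophil list to 5.4 (SCI) to 54.7 CPM (Sham), against 8.7 to 49.6 CPM. Siglech, a marker of plasmacytoid dendritic cells, gave 0 UMIs in all 4 libraries. Against Fcer2-positive cells Cd2 was higher among 5 T cell genes, Klrb1a among 6 NK genes and Cd1d1 among 2 dendritic genes, Lst1 was lower among 2 monocyte genes and Lgals5 and Car2 among 8 erythroid genes, and none of 6 platelet genes and 1 neutrophil gene was called. With DESeq2 none of these genes was called. Their part in the results was not tested, except that without the cells holding NK or plasma cell UMIs 737 genes were called against Fcer2-positive cells, beside 683 with them.

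Set against B cells with neither Cd24 nor Fcer2 RNA detected (3780 cells), 246 of 6477 genes were higher (3.8%) and 287 lower (4.43%) by the same edgeR test. This class held plasma cell RNA: Tnfrsf17, the receptor BCMA of plasma cells, was at 7.8 to 29.7 CPM in 3 libraries of Cd24+ Fcer2- cells and at 0 in MSC-i.t, against 66.9 CPM in MSC-i.v, 102 in MSC-i.t, 184 in SCI and 110 in Sham in cells without either RNA. Of 8 plasma cell genes 7 were lower and none higher, and other genes of protein folding and secretion (Pdia4, Creld2, Sdf2l1 and Sec11c) were among the largest falls, at log2 fold changes of -2.41 to -1.80. Without the cells holding NK or plasma cell UMIs, 0 of the 7 plasma cell genes that could be tested were called. Mzb1 belongs here too, at 293 CPM in MSC-i.v, 228 in MSC-i.t, 619 in SCI and 315 in Sham, against 344 in MSC-i.v, 472 in MSC-i.t, 1063 in SCI and 658 in Sham in cells without either RNA, a log2 fold change of -0.87 that was 0.65 without those cells. In SCI 134 of the 229 Mzb1 UMIs came from 1 cell. Against Fcer2-positive cells, with 69.8 to 90.1 CPM, Mzb1 was higher in 4 of 4 libraries (log2 fold change 2.04, SE 0.15, edgeR, adjusted p = 1.1e-10), and thinned to 2000 UMIs it was detected in 29.5% to 41.7% of Cd24+ Fcer2- cells, against 8.88% to 11.6%.

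The 2 comparisons share the summed counts of the Cd24+ Fcer2- cells, so the second is no independent check of the first and its values are given beside them. MHC class II had 8 lower and 0 higher of 11 genes, with a median of -0.54, and RT1-Bb had a log2 fold change of -0.94 (SE 0.06, edgeR, adjusted p = 5.8e-14). Ccr6 had a log2 fold change of -1.07. Akap12 had a log2 fold change of 1.48, Stambpl1 of 1.80, Thy1 of 1.44 (SE 0.22, edgeR, adjusted p = 1.3e-05), Zeb2 of 1.50, Zbtb32 of 1.36 and Vim of 0.95, each higher in 4 of 4 libraries. Of 9 genes of the mature follicular list 5 were lower and 0 higher, but 1 was lower with DESeq2 and 2 with cells thinned. Of 16 pan-B genes, a list that holds the markers Spib and Cd72, 6 were higher and Bank1 lower. Cd44, Bcl2, Cd40 and Mki67, called against Fcer2-positive cells, were not called here, at log2 fold changes of 0.45, -0.08, -0.29 and 0.10.

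The other genes with the largest called rises over B cells without either RNA were Pcp4l1, Gzma, Rgs13 (a damper of chemokine receptor signals), Myb, Try10 (a trypsin), Il5ra (the IL-5 receptor alpha chain, found on B1 cells in mouse), Gzmk, Prss3, Tubb2b and Socs2 (a damper of cytokine signals). Il5ra was at 12.6 CPM in MSC-i.v, 13.2 in MSC-i.t, 24.3 in SCI and 19.5 in Sham, against 1.5 to 5.3 CPM, a log2 fold change of 2.12 (SE 0.39, edgeR, adjusted p = 0.00019). The rise of Prss3 came from 185 UMIs of 1 SCI cell and had the opposite sign in DESeq2, at a log2 fold change of -3.95. Gzma and Gzmk are granule proteases of NK and T cells, and all 6 NK genes measured were higher, while without the cells holding NK or plasma cell UMIs only 1 of them could be tested and it was not called. The largest falls beside those named were Ccl6, Cryba4, Slamf7 (a receptor of plasma cells), Ada (adenosine deaminase), Trpm6, Tmem97 and Adam19, at log2 fold changes of -4.40 to -2.06.

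The remaining lists against B cells without either RNA gave these counts. Of 14 B cell receptor signalling genes 5 were higher, of 19 interferon response genes 5, of 7 memory and atypical genes 4, of 9 immature and transitional genes 3, with 1 lower, and of 6 B1 and innate-like genes 3. Of 6 marginal zone genes Cd1d1 was higher and Mzb1 and Cr2 were lower, of 13 homing genes 3 were lower, of 14 immediate early genes 3 were lower, of 14 cell cycle genes Mcm3 was lower and of 9 survival genes Tnfrsf13c was higher. Cytokine, Toll-like receptor, glucocorticoid, precursor, dendritic, monocyte and erythroid lists had at most 2 calls in a direction, and T cell, platelet and neutrophil lists none. With DESeq2, 1 homing gene, 1 immediate early gene, 1 marginal zone gene and no cell cycle gene were lower, and 2 interferon, 2 memory and atypical, 2 B1 and innate-like and 1 immature and transitional genes were higher. With cells thinned, 1 of 14 interferon genes was higher. No immature and transitional or B1 and innate-like gene was higher then, and 1 of 6 and 1 of 3 were lower. Of 5 memory and atypical genes 3 were higher and 1 was lower.

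Between libraries the Cd24+ Fcer2- cells of SCI and Sham differed in the level of broadly expressed genes, in platelet and red cell RNA and in a few interferon genes. Of 2936 genes with at least 30 UMIs in one of the libraries, 103 were at least 2-fold higher (3.51%) and 67 at least 2-fold lower (2.28%) in SCI, with 1 library each and no test. Klf13, a zinc finger transcription factor, was at 265 CPM in SCI (98 UMIs) and 15.6 CPM in Sham (12 UMIs), a log2 ratio of 4.08 (95% interval 3.21 to 5.08), and the same ratio in T-gated cells was 2.72. Cdv3 was at 254 CPM in SCI, against 16.9 CPM in Sham, a log2 ratio of 3.91, beside 4.01 in T-gated cells. The other genes highest in SCI were Dapk3 (a death-associated kinase), Basp1 (a membrane-bound signalling protein), Gnas (the stimulatory G protein alpha subunit) and Purb (a nucleic acid-binding protein), at log2 ratios of 3.80 to 5.51, and at 2.49 to 4.32 in T-gated cells. Of the genes at least 2-fold higher in SCI, 64 of the 99 with a value in T-gated cells were also at least 2-fold higher there. Of the lower genes, 22 of 66 were also at least 2-fold lower there. The share of all genes past 2-fold in T-gated cells is not given here, so these overlaps cannot be compared with it.

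Among the genes lowest in SCI were platelet and red cell genes, beside Alox15 and Hopx, which are on neither of those lists. Pf4, platelet factor 4, had 4 UMIs in SCI and 235 in Sham, 62 of them in 1 cell, a log2 ratio of -4.82 (-6.71 to -3.45). Ahsp, the chaperone of alpha hemoglobin, had 1 UMI in SCI and 70 in Sham, and Alox15 (a lipoxygenase), Clec1b (a platelet receptor), Hopx and Pla2g2a (a secreted phospholipase) had 1 to 3 UMIs in SCI and 40 to 80 in Sham. All 3 platelet and all 6 erythroid genes with enough UMIs were at least 2-fold lower in SCI. The platelet list summed to 29.7 CPM in SCI, against 546 CPM in Sham in these cells, and to 102 CPM in SCI, against 496 CPM in Sham in Fcer2-positive cells. The part of platelet and red cell RNA in the other differences was not tested.

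Among listed genes Jund, a member of the AP-1 family, was at 559 CPM in SCI, against 152 CPM in Sham (log2 ratio 1.88, 1.54 to 2.22), and Btg1 at 1778 CPM in SCI, against 556 CPM in Sham (1.68, 1.50 to 1.86). In T-gated cells their log2 ratios were 2.03 and 1.39. Bcl2 was at 83.8 CPM in SCI, against 31.3 CPM in Sham, a log2 ratio of 1.42 (0.61 to 2.25), with 0.58 in T-gated cells and 0.24 in Fcer2-positive B cells. Ifi27, an interferon-induced membrane protein, was at 111 CPM in SCI, against 559 CPM in Sham, a log2 ratio of -2.33 (-2.83 to -1.87), with -1.89 in T-gated cells, and Rsad2 (viperin) had a log2 ratio of -2.32. They were the only 2 of 11 interferon genes past 2-fold. Lyz2, lysozyme of myeloid cells, was at 86.5 CPM in SCI, against 259 CPM in Sham. None of 13 pan-B, 7 MHC class II and 10 B cell receptor signalling genes differed 2-fold, with medians of -0.12, 0.06 and 0.05. Over all genes 3.51% were at least 2-fold higher and 2.28% lower. By that share, lists of this size would hold few such genes or none. Cd79a, the signalling partner of Cd79b, was at 259 CPM in SCI, against 143 CPM in Sham, a log2 ratio of 0.86 (0.45 to 1.26), and was detected in 63.2% of cells in SCI, against 35.9% in Sham. Its log2 ratio in Fcer2-positive B cells was 0.95. Cd72 was at a log2 ratio of -0.52 (-0.88 to -0.17), Spib at -0.12 (-0.40 to 0.15) and RT1-Bb at 0.92 (0.65 to 1.18). Of the plasma cell list Jchain, Txndc5 and Herpud1 were at least 2-fold higher in SCI, with 28 of 36 Jchain UMIs, 24 of 45 Txndc5 UMIs and 13 of 38 Herpud1 UMIs in 1 cell each.

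**Figure D5:**
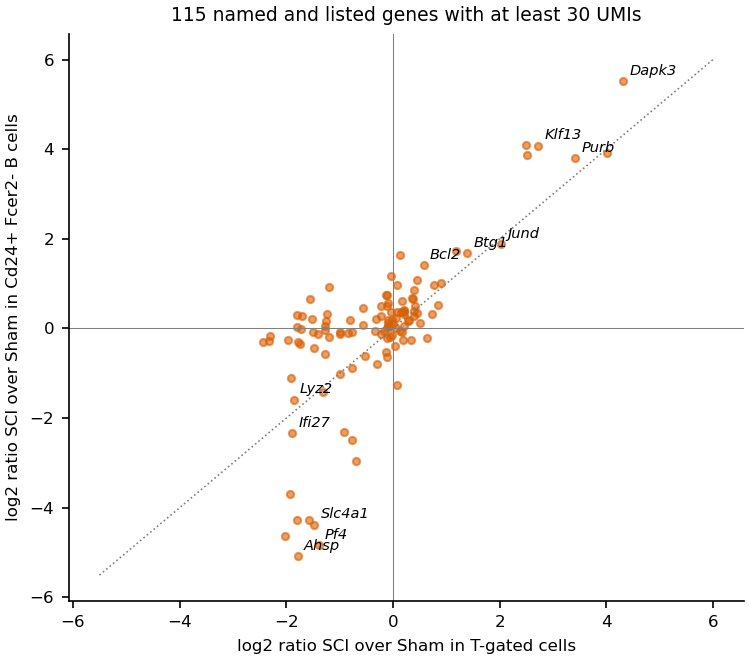
Log2 ratio of SCI over Sham for 115 named or listed genes, in Cd24+ Fcer2- B cells (vertical axis) and in T-gated cells (horizontal axis). Genes such as Cdv3, Jund and Ifi27 lie near the diagonal, and Pf4 and Ahsp lie below it, at -4.82 and -5.08 in the Cd24+ Fcer2- cells.

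The MSC-i.v and MSC-i.t libraries were each set against the same SCI library, so their lists share it and are given side by side. In MSC-i.t over SCI 45 of 2238 genes were at least 2-fold higher (2.01%) and 120 at least 2-fold lower (5.36%), and in MSC-i.v over SCI 32 of 2472 were higher (1.29%) and 102 lower (4.13%). Jund was at 132 CPM in MSC-i.v, 132 in MSC-i.t and 559 in SCI, and Btg1 at 703 CPM in MSC-i.v, 681 in MSC-i.t and 1778 in SCI. Their log2 ratios over SCI were -2.08 in both libraries for Jund, and -1.34 in MSC-i.v and -1.38 in MSC-i.t for Btg1. T-gated cells had log2 ratios of -2.20 in MSC-i.v and -2.07 in MSC-i.t for Jund, close to those in the B cells.

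The genes lowest over SCI in MSC-i.t were Cdv3, Taf10 (a subunit of TFIID), Basp1, Map1lc3a (an autophagy protein), Dapk3 and Bri3. Cdv3 had 6 UMIs in MSC-i.t, against 94 in SCI, a log2 ratio of -4.49 (-5.97 to -3.31), beside -4.69 in T-gated cells. Basp1 and Map1lc3a gave 0 UMIs in MSC-i.t, against 41 and 36 in SCI. In MSC-i.v the lowest were Dapk3, Basp1, Smap1, Jchain, Map1lc3a and Taf10, with Dapk3 at 0 UMIs against 44 in SCI and the others at log2 ratios of -4.56 to -3.57. Of the genes 2-fold lower that had a value in T-gated cells, 63 of 96 in MSC-i.v and 74 of 116 in MSC-i.t were also 2-fold lower there. The share of all genes past 2-fold in T-gated cells is not given here either. Neither this overlap nor that of the higher genes below can therefore be compared with it.

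Of the genes at least 2-fold higher over SCI that had a value in T-gated cells, 12 of 31 in MSC-i.v and 5 of 45 in MSC-i.t were also 2-fold higher there. In MSC-i.t they were led by Hopx (25 of 43 UMIs in 1 cell), Pf4, Mrpl43 (a mitochondrial ribosomal protein), Zbtb32, Ifi27 and Rnf5 (a ubiquitin ligase). Zbtb32 was at 62.2 CPM in MSC-i.t, against 18.9 CPM in SCI, a log2 ratio of 1.72 (0.52 to 3.14) with 10 of 33 UMIs in 1 cell, and at -0.08 in T-gated cells. Ifi27 was at 323 CPM in MSC-i.t, against 111 CPM in SCI, a log2 ratio of 1.54 (1.04 to 2.07), with 1.07 in T-gated cells. In MSC-i.v they were led by Alox15 (54 of 75 UMIs in 1 cell), Hopx, Pf4, Pla2g2a, Fosb and Car2 (carbonic anhydrase of red cells). Fosb, an AP-1 protein made early on activation, was at 53.4 CPM in MSC-i.v, against 8.1 CPM in SCI, a log2 ratio of 2.72 (1.05 to 5.07), and at -0.82 in T-gated cells. The antiviral GTPases Mx1 and Mx2 had log2 ratios of -1.10 and -1.19 in MSC-i.v over SCI, and of -0.03 and 0.48 in T-gated cells.

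Among the 7 MHC class II genes with enough UMIs none differed 2-fold from SCI in either library, with medians of 0.01 in MSC-i.v and 0.07 in MSC-i.t. Over all genes 1.29% were 2-fold higher and 4.13% lower in MSC-i.v, and 2.01% and 5.36% in MSC-i.t. By those shares few or none of 7 genes would pass. Of 14 pan-B genes only Ralgps2, an exchange factor for Ral, passed 2-fold, with a log2 ratio of -1.06 in MSC-i.v. Cd79a had log2 ratios of -0.91 (-1.34 to -0.48) in MSC-i.v and -0.87 (-1.33 to -0.42) in MSC-i.t. Cd72 had a log2 ratio of -0.21 (-0.61 to 0.19) in MSC-i.v and of 0.43 (0.06 to 0.81) in MSC-i.t, and Akap12 of 0.64 (0.16 to 1.14) in MSC-i.v and -0.38 (-0.96 to 0.20) in MSC-i.t. Mzb1 was lower in both, at log2 ratios of -1.08 in MSC-i.v and -1.44 in MSC-i.t, and 134 of its 229 UMIs in SCI came from 1 cell. The plasma cell genes Jchain and Txndc5 were lower with it, for which 1 SCI cell held 28 of 36 and 24 of 45 UMIs. Without the SCI cell that held 5 or more Jchain UMIs and the cells with NK cell UMIs, Mzb1 in MSC-i.v over SCI had a log2 ratio of 0.11.

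Against Sham, fewer genes passed 2-fold. In MSC-i.v 7 of 2963 genes were higher (0.236%) and 43 lower (1.45%), and in MSC-i.t 17 of 2922 were higher (0.582%) and 50 lower (1.71%). Ifi27 was at 138 CPM in MSC-i.v, 323 in MSC-i.t and 559 in Sham, a log2 ratio over Sham of -2.02 (-2.36 to -1.68) in MSC-i.v and -0.79 (-1.06 to -0.53) in MSC-i.t. Bst2 (tetherin) and Cd55, a shield against complement, were lower in MSC-i.v, at log2 ratios of -1.34 and -1.09, while Fosb and Tcf4, a factor of B and plasmacytoid dendritic cells, were higher at 1.90 and 1.13. In MSC-i.t Cd22, an inhibitory receptor of B cells, was at 83.0 CPM against 31.3 CPM in Sham, a log2 ratio of 1.41 (0.66 to 2.19) beside -0.18 in Fcer2-positive B cells. Zbtb32 and Bcl2 had log2 ratios of 1.41 and 1.04 in MSC-i.t over Sham, and Isg15 of 1.22, with 23 of its 61 UMIs in 1 cell.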

How the data were processed

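For 1 blood library in each of 4 groups the authors deposited UMI counts as sparse gene-by-barcode matrices that Cell Ranger 4 made, per the file headers, with 6794880 barcodes and 25340 gene identifiers per library. Per the submitters' processing notes the genome was mRatBN7.2; the promoter table is of GRCr8, and coordinates are printed from that table alone. The library protocol in the labels is for bulk poly(A) RNA, unlike these single-cell matrices, and was not used. The cells and all gene lists were chosen with earlier results of these data known. Of the listed symbols, 18 are not analysed here. Some genes that the naming rule picks are not reported here.

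UMIs were summed per class and library. The difference between classes was tested with edgeR 4.0.16 in R 4.3.3 (TMM, filterByExpr, quasi-likelihood test, library as block, Benjamini-Hochberg at 0.05), leaving out the genes of the rule; the SE is the log2 fold change over the square root of F. The blocks are the libraries themselves, each holding every class. Libraries were compared by shares with exact Clopper-Pearson intervals and by ratios of CPM with exact conditional binomial intervals at 95%, for genes with at least 30 UMIs in 1 of them; with 0 UMIs a floor of 3 counts per library was used. Named genes are the 12 highest and 12 lowest called per class comparison, the 6 highest and 6 lowest ratios per library comparison with a UMI in at least 5% of cells, and listed genes. Alternatives were DESeq2 1.42.0, other thresholds and denominators, thinning to 2000 UMIs, leaving out the 5% highest Scrublet doublet scores (scanpy 1.11.5), leaving out each library and, chosen after seeing the data, leaving out cells with 2 or more NK or 5 or more Jchain UMIs.

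On simulated counts edgeR recovered 74% of genes raised 2-fold and 66.7% of genes lowered 2-fold against Fcer2-positive cells (6251 genes), and 80% and 47.9% against cells without either RNA (6440 genes), with 0.0506% and 0.180% of unchanged genes called. These counts were drawn for every library from a shared profile with a fixed dispersion. They held no differences between libraries and no single cells with many UMIs, so the percents need not hold for the real libraries. Among simulated SCI over Sham ratios (2309 genes), 96.4% of intervals of unchanged genes held the true value.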

Additional observations from a re-analysis of the deposited data

How the results depend on the processing

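For the results that answer a comparison, 87 alternatives stayed within the interval of the share ratio or within 1.5 times the total count of genes. Which genes passed, and their split into higher and lower, were not part of that measure. With the T-gated ratio subtracted, MSC-i.t over Sham had 47 genes higher and 32 lower, beside 17 and 50 in the main setting. Without the highest doublet scores, MSC-i.v over Sham had 19 higher and 49 lower, beside 7 and 43. Alternatives outside these limits follow. Their cause was not tested unless the alternative removes genes or cells by its construction. Counted over kept barcodes, the log2 ratio of the share was -1.11 for SCI over Sham, 0.15 for MSC-i.t over SCI and 0.40 for MSC-i.v over SCI; over T-gated cells it was -1.45, 0.28 and 0.73, and -1.17 for MSC-i.t over Sham. With at least 2 Cd24 UMIs it was -0.92 for MSC-i.v over SCI. Genes past 2-fold numbered 170 in SCI over Sham, 165 in MSC-i.t over SCI, 134 in MSC-i.v over SCI, 67 in MSC-i.t over Sham and 50 in MSC-i.v over Sham. In the same order they numbered 690, 669, 626, 469 and 499 with a minimum of 10 UMIs per gene, and 24, 19, 20, 8 and 5 with a minimum of 100. With thinned cells they were 101, 68, 70 and 32 in the first 4 of these comparisons. With at least 2 Cd24 UMIs they were 96 in SCI over Sham, 78 in MSC-i.t over SCI and 30 in MSC-i.t over Sham. With the T-gated ratio subtracted, 62 genes were past 2-fold in MSC-i.t over SCI, counted anew rather than among the 165. Of these 38 were higher and 24 lower, beside 45 higher and 120 lower in the main setting. Class calls numbered 683 against Fcer2-positive cells and 533 against cells without either RNA; they were 284 and 264 in DESeq2, 375 and 177 with no replicate block, 409 and 344 with thinned cells, and 487 to 634 and 366 to 491 with each library left out. Of named genes called, 62 of 106 and 36 of 97 passed in every alternative. With the T-gated ratio subtracted the log2 ratio turned for Cdv3 (-0.10), Lyz2 (0.27), Jund (-0.16) and Tyrobp (0.80) in SCI over Sham, for Cdv3 (0.20), Basp1 (0.60) and Dapk3 (0.41) in MSC-i.t over SCI, and for Btg1 (0.048), Lyz2 (-0.59), Zfp36l2 (0.085) and Jund (0.11) in MSC-i.v over SCI. Mzb1 in MSC-i.v over SCI was 0.079 with at least 2 Cd24 UMIs and 0.11 without cells holding NK or plasma cell UMIs. Against cells without either RNA the log2 fold change was -3.95 for Prss3 in DESeq2; with thinned cells 0.62 for Mzb1, 0.17 for Jchain, -0.27 for Nkg7, -0.65 for Prf1 and -0.55 for Tyrobp; and without cells holding NK or plasma cell UMIs 0.65 for Mzb1, 0.80 for Jchain, 0.038 for Ssr4 and -0.37 for Tyrobp. No paired analysis beyond the library block was possible because each group has 1 library. With 87 cells in SCI and 1 library per group, a ratio of genes near 30 UMIs has an interval of several fold.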
